A study of Solanum lycopersicum with 6 samples.

Results

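Losses of CHG methylation at the 3′ ends of genes were examined in tomato embryos that lack SlNRPD1. The regions were chosen from the authors' table of CHG regions, in which a region had been listed because it differed between the genotypes, by 2 conditions. The mean methylation was lower in nrpd1 than in wild type, and the authors' annotation of the region was 3′ UTR or Downstream, a label that reaches up to 300 bp past a gene. There were 842 such regions, 219 labelled 3′ UTR and 623 labelled Downstream, among 42277 listed CHG regions, of which 37203 (88.0%) were lower in nrpd1, and 132092 regions of the CG, CHG and CHH contexts together. Embryos carrying a knockout of SlNRPD1 (nrpd1, 3 libraries) were compared with wild-type embryos (WT, 3 libraries). Both came from the dwarf cultivar Micro-Tom at 21 days after flowering and differed, as far as the labels say, in this gene alone. The labels give neither the mutant allele nor the number of embryos or plants behind a library. DNA was converted with bisulfite and sequenced, and each region carried 1 mean level per genotype made by the authors, so values of single libraries, read depth and the error between libraries are unknown.

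NRPD1 forms the catalytic core of the plant enzyme RNA polymerase IV, whose transcripts are turned into the small interfering RNAs that guide methyltransferases to DNA, a process called RNA-directed DNA methylation. In plants the CHG context (H is A, C or T) is kept mainly by chromomethylases that read histone H3 lysine 9 methylation, while CHH methylation depends more directly on RNA-guided or chromatin-guided methylation in each cell cycle. The flanks of plant genes often hold short transposon remnants at which this pathway acts, and the 3′ flank is also where transcripts are cleaved and polyadenylated.

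The labels were first checked against the gene coordinates in the same tables. Of the 623 regions labelled Downstream, 610 began 1 to 300 bp past the nearest gene 3′ end, at a median distance of 166 bp among all 623 (quartiles 89.5 and 232.5). Of the 219 labelled 3′ UTR, 166 spanned the annotated end of a gene and 45 lay on the gene side of the nearest end. The place of the regions therefore matched their labels in most cases, but the strand did not. Genes in the tables were evenly divided, with 13732 on the plus and 13741 on the minus strand, whereas the nearest gene end belonged to a plus-strand gene for 799 of the 842 regions (94.9%). Of the CHG losses 1 to 300 bp past a gene end, 593 at plus-strand genes were labelled Downstream and 0 Distal Intergenic, and at minus-strand genes 17 were labelled Downstream and 557 Distal Intergenic. The 842 regions are thus 3′ ends of plus-strand genes almost throughout, and the corresponding places at minus-strand genes are described beside them below. The gene that the table assigns to a region, which is the one with the nearest transcription start, was the gene with the nearest 3′ end in 648 of 842 cases (77.0%). A promoter label, given within 2 kb upstream of a start, excludes a region from the set, and no region lay closer than 2004 bp upstream of the start of its assigned gene.

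CHG methylation at these ends was lowered in part and seldom removed. The median level was 26.8% in nrpd1 (quartiles 15.6 and 39.4) and 58.3% in WT (43.7 and 71.9). The median difference was -27.4 points, with an SD of 0.934 points among the medians of the 12 chromosomes, and the median region kept 46.5% of its wild-type level (quartiles 35.3 and 58.2). Individual differences ran from -62.2 to -11.9 points. A drop of at least 20 points was seen in 730 regions (86.7%), of at least 40 points in 82 and of at least 50 points in 11. These values chose the regions and are given as a description. DNA of whole embryos was measured, so a partial loss in every cell and a full loss in a share of the cells cannot be told apart.

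**Figure D1:**
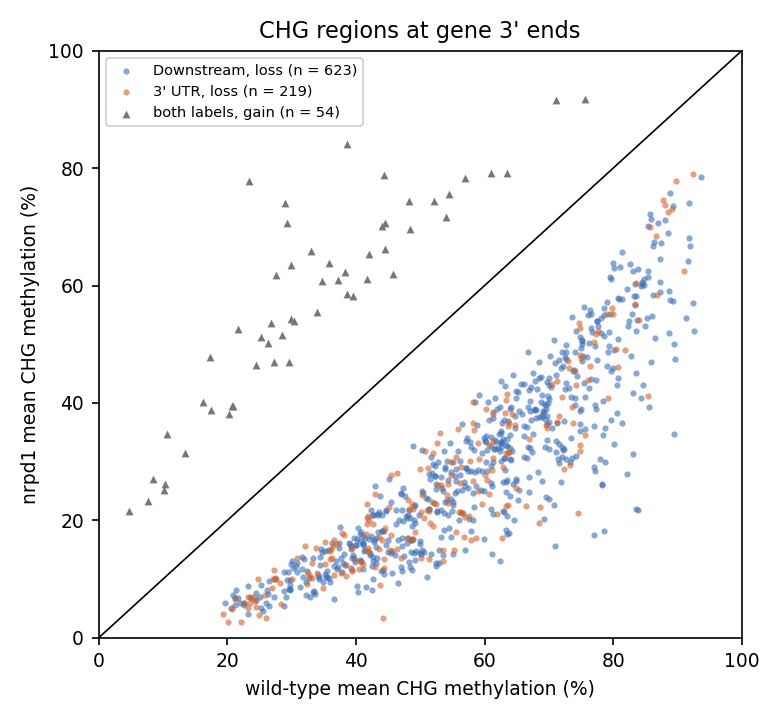
Mean CHG methylation in nrpd1 (vertical axis, %) against WT (horizontal axis, %) for each listed CHG region at a gene 3′ end, with Downstream losses in blue, 3′ UTR losses in orange, gains as grey triangles and equality as the line. The 842 losses form a band that bends upwards, so that regions with the highest WT level keep the largest share of it, and the 54 gains lie apart above the line.

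The size of the loss was similar over most of the range of starting levels, and the share of methylation kept was not. When the regions were ordered by WT level and divided into 4 groups of equal size, the lowest group had medians of 11.9% in nrpd1 and 35.4% in WT and kept 33.5% of the WT level. The highest group had medians of 50.1% in nrpd1 and 79.3% in WT and kept 64.1%. The median differences of the 4 groups, from the lowest to the highest WT level, were -22.2, -29.5, -30.5 and -28.4 points. Near-complete removal was rare, since 75 regions (8.91%, Wilson 95% interval 7.17 to 11.02, counting error only) were below 10% in nrpd1 and 9 were below 5%, 7 of these 9 in a 3′ UTR. At the other extreme, 108 regions (12.8%) kept a level of 50% or more in nrpd1. No region is listed in the CHG table with a difference under 10 points, which bounds the share that a weakly methylated region can be seen to keep.

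Regions labelled 3′ UTR, most of which spanned a gene end, started lower than those labelled Downstream. In 3′ UTRs the median was 22.3% in nrpd1 and 53.04% in WT, with a difference of -26.8 points, and in the Downstream flank it was 28.5% in nrpd1 and 61.04% in WT, with a difference of -27.6 points. The SD of the chromosome medians in WT was 4.94 points for the 3′ UTR regions and 5.42 points for the Downstream regions, so the WT medians of the labels lay farther apart than either SD. The median differences of the labels lay closer together than the corresponding SD of 2.63 points in 3′ UTRs. The 3′ UTR regions were wider, with a median of 401 bp and 16 CHG cytosines against 321 bp and 12 cytosines in the flank. No test was made between the labels, because the tables hold no replicate values and regions are not replicates.

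Arranged by distance, the level of the labelled regions and of distal CHG losses was higher in each class farther from the gene end, in both genotypes. Regions spanning the end had medians of 22.1% in nrpd1 and 53.2% in WT (166 regions). Those beginning 1 to 100 bp past it had 25.5% in nrpd1 and 57.4% in WT (182 regions), and those beginning over 200 and up to 300 bp past it had 30.7% in nrpd1 and 62.6% in WT (233 regions). Beyond the 300 bp limit the same order continued among CHG losses labelled Distal Intergenic. The distal losses were taken past gene ends of either strand, whereas the labelled regions lay almost throughout at plus-strand genes, so the 2 sets are unlike. At over 300 and up to 500 bp the distal losses had 32.5% in nrpd1 and 65.4% in WT (751 regions). At over 2000 and up to 5000 bp they had 37.7% in nrpd1 and 70.6% in WT (3171 regions). The share of the WT level kept was 42.8% across the end, 48.9% up to 300 bp, 51.3% up to 500 bp and 54.7% in the last of these classes. Of the regions farthest inside it, one beginning at 300 bp on chromosome 2 (44586567 to 44586895) had 16.8% in nrpd1 and 42.1% in WT, and of those just outside it at plus-strand genes, one of a pair nearest to it, on chromosome 5 (6994344 to 6995221) had 55.7% in nrpd1 and 86.1% in WT, its equal on chromosome 6 (29601054 to 29604719) had 43.0% in nrpd1 and 83.8% in WT, and one at 302 bp on chromosome 3 (4059534 to 4059683) had 24.2% in nrpd1 and 52.6% in WT.

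**Figure D2:**
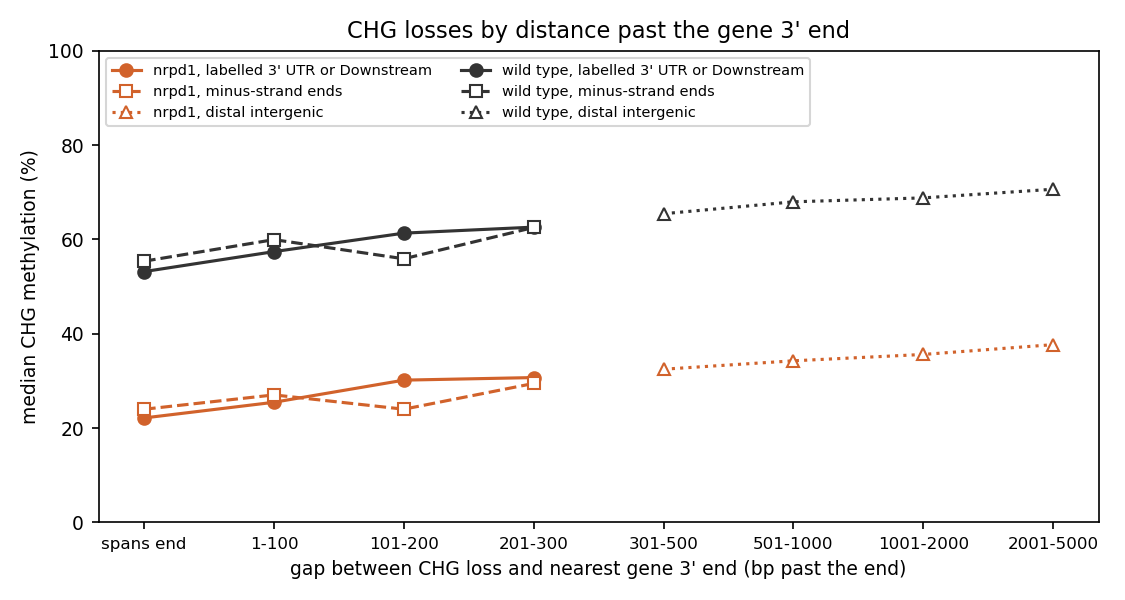
Median CHG methylation (%) of CHG losses by their gap to the nearest gene 3′ end in bp, in nrpd1 (orange) and WT (black), for regions labelled 3′ UTR or Downstream (filled circles), regions at minus-strand ends under other labels (open squares) and Distal Intergenic regions past ends of either strand (triangles). The filled circles and triangles are higher farther out, with medians between 22.1% and 37.7% in nrpd1 and between 53.2% and 70.6% in WT. The open squares do not rise steadily and lie lowest against the circles at over 100 and up to 200 bp, with 24.0% in nrpd1 and 55.9% in WT.

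The 3′ ends of minus-strand genes, which the labels leave out of the set, had similar levels. Outside promoters, 747 CHG losses spanned or lay within 300 bp past the nearest end of a minus-strand gene under other labels, of which 557 were labelled Distal Intergenic, 176 Exon and 14 5′ UTR. The 752 regions of the set in the same position at plus-strand genes had medians of 26.9% in nrpd1 and 59.1% in WT and kept 46.7% of the WT level. The 747 minus-strand regions had 25.6% in nrpd1 and 59.0% in WT and kept 45.7%. The SDs of the chromosome medians were 4.33 points for the share kept at plus-strand ends and 2.49 points at minus-strand ends, so these levels differed by less than their spread among chromosomes. By distance, however, the minus-strand regions showed no steady rise. Their medians were 24.0% in nrpd1 and 55.4% in WT across the end, 27.0% in nrpd1 and 59.9% in WT up to 100 bp past it, 24.0% in nrpd1 and 55.9% in WT at over 100 and up to 200 bp, and 29.5% in nrpd1 and 62.5% in WT up to 300 bp. At over 100 and up to 200 bp the labelled regions had 30.2% in nrpd1 and 61.3% in WT. The number of genes involved was alike, 744 on the plus and 737 on the minus strand. Gains were equally few, with 35 at plus-strand and 35 at minus-strand ends. A further 91 CHG losses at plus-strand ends carried other labels and are in neither group. The minus-strand regions were collected after the strand of the labels had been seen, and by coordinates in place of labels.

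Of the 8 regions with the greatest losses, 7 carried the Downstream label, and their widths ran from 73 to 753 bp. The largest drop was on chromosome 2 (SL4.0 assembly, 40307256 to 40307349, 94 bp with 5 CHG cytosines), 241 bp past the end of the plus-strand gene Solyc02g077360.1, with 21.8% in nrpd1 and 83.9% in WT. A stretch of 73 bp on chromosome 9 (402414 to 402486), 7 bp past a gene, had 22.0% in nrpd1 and 83.6% in WT, and overlapped a CG loss but no CHH loss. On chromosome 5 (62955217 to 62955580) a longer region with 14 CHG cytosines had 18.2% in nrpd1 and 78.6% in WT, and on chromosome 6 (39931141 to 39931287) one with 10 cytosines had 17.5% in nrpd1 and 77.1% in WT. These 4 regions kept between 22.8% and 26.3% of the WT level. The next 3 were on chromosome 3 (62640113 to 62640193), with 15.7% in nrpd1 and 70.97% in WT, on chromosome 6 (35440495 to 35441223), with 34.8% in nrpd1 and 89.4% in WT, and on chromosome 4 (50113791 to 50114543), with 27.9% in nrpd1 and 82.2% in WT. Regions with 4 or 5 cytosines rest on few sites, and their read depth is unknown.

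The largest drop in a 3′ UTR spanned the end of the plus-strand gene Solyc08g075870.3 on chromosome 8 (58076790 to 58077287, 19 CHG cytosines), with 21.3% in nrpd1 and 74.6% in WT. The other 3 of the 4 largest also spanned a gene end. On chromosome 9 (64687912 to 64688596) the level was 19.6% in nrpd1 and 68.5% in WT, on chromosome 10 (46310471 to 46310718) it was 22.3% in nrpd1 and 68.7% in WT, and on chromosome 11 (48439529 to 48440835), in a stretch of 1307 bp, it was 16.97% in nrpd1 and 62.7% in WT. Each of these 4 overlapped a CHH loss. Neither these gene identifiers nor any other of the 27473 in the tables could be paired with a gene name or function here, so the regions are given by position.

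The widest regions lost less in points than those named above, which were chosen by their drop, but over many more cytosines. Their differences were -41.1, -32.5 and -28.4 points, against a median of -27.4 points over all 842 regions. The widest covered 3326 bp with 132 CHG cytosines on chromosome 8 (48952551 to 48955876), across a gene end in a 3′ UTR, with 34.6% in nrpd1 and 75.6% in WT. The next covered 2794 bp on chromosome 10 (2518182 to 2520975), with 28.6% in nrpd1 and 61.2% in WT, and the one after it 2163 bp on chromosome 9 (58196287 to 58198449), with 62.5% in nrpd1 and 90.96% in WT. All 3 widest regions overlapped both a CHH loss and a CG loss. Such widths were uncommon, since 37 regions reached 1000 bp and the median was 343.5 bp.

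At the other edge of the set, the smallest loss lay in a 3′ UTR on chromosome 1 (66695527 to 66695599), with 77.8% in nrpd1 and 89.7% in WT. The smallest gain under the 3′ UTR or Downstream label, just across the condition on direction, lay on chromosome 2 (45608470 to 45608544), with 25.2% in nrpd1 and 10.1% in WT. By the gene coordinates it lay on the gene side of the nearest gene end, at -8000 bp from it, although labelled 3′ UTR. Whether it lay within that gene was not checked.

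CHH methylation fell at most of the same places. A listed CHH loss shared at least 1 bp with 647 of the 842 regions (76.8%, Wilson 95% interval 73.9 to 79.6), and this share was 75.7% over all CHG losses, so it was near the background. It was 83.7% in CHG losses of promoters, 74.9% in distal intergenic ones, 60.2% in introns and 50.3% in exons. Along the gene end it differed with position. It was 51.1% for the 45 regions on the gene side of the end, 74.1% across the end and 82.4% at over 200 and up to 300 bp past it. Not a single region overlapped a CHH gain, which allows a share of up to 0.356% if the limit is set at 3 counts of 842 (Wilson 95% upper limit 0.454%), and the share was 0.0% over all CHG losses. The share depended on the size required. With CHH losses of at least 20 points and all 842 regions it was 26.5%, against 33.2% of all CHG losses, and with at least 20 points in both contexts it was 29.6%, against 35.2%.

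The regions paired, by longest overlap, with 640 distinct CHH losses, which had a median of 6.35% in nrpd1 (quartiles 4.93 and 8.53) and 24.0% in WT (19.0 and 30.6), and kept 27.1% of the WT level. CHG kept 48.3% in the 647 regions with a CHH loss, from a WT median of 61.4%, and 46.5% over the 842 regions. Among CHH losses labelled as gene 3′ ends, too, none is listed with a drop under 10 points. From the lower WT level of CHH, such a limit leaves less room for a large share kept. The shares kept by CHH and CHG therefore cannot show which context was removed more fully. The 640 CHH losses were wider than the CHG regions, with a median of 709 bp. Where the gene end lay within 300 bp, 398 of 609 CHG losses lay wholly within their CHH loss. The Downstream label takes regions that begin past a gene end, so these CHG losses could not cross it, and their CHH losses were wider, with a median of 722 bp against 355 bp. Of 484 Downstream regions with a CHH loss, all beginning past the gene end, 41.5% (Wilson 95% interval 37.2 to 46.0) had a CHH loss that crossed the gene end, reaching a median of 68 bp into the gene. In all 609 cases the CHH loss reached a median of 742 bp past the end.

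**Figure D3:**
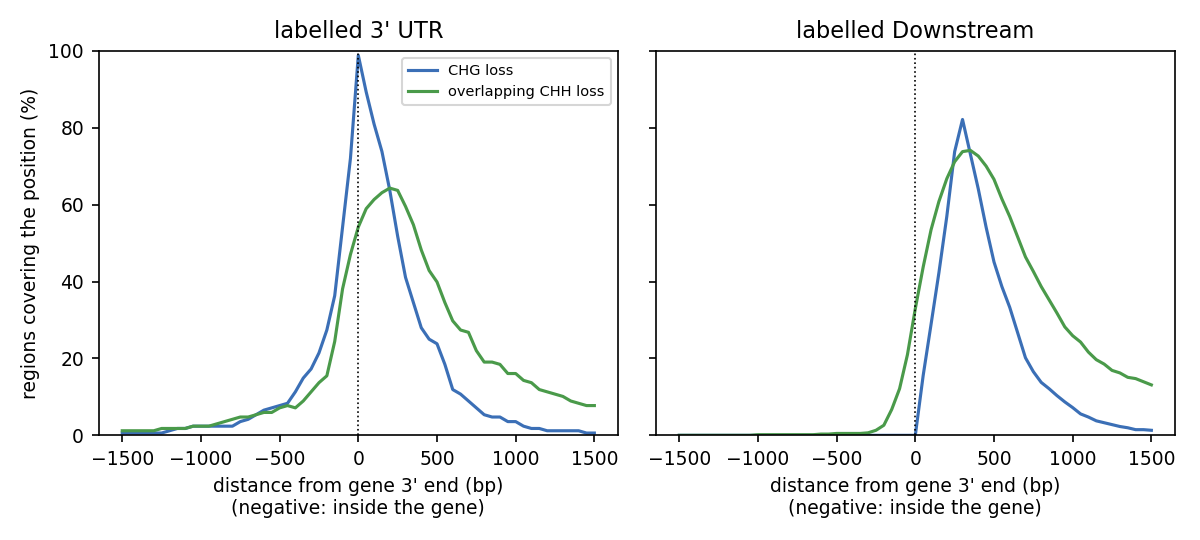
Share of regions (%) that cover each position around the nearest gene 3′ end (bp, negative inside the gene), for 168 regions labelled 3′ UTR on the left and 610 labelled Downstream on the right, with CHG losses in blue and the CHH losses overlapping them in green. On the left the CHG curve peaks at the end itself with 98.8% and the CHH curve 200 bp past it with 64.3%, and on the right CHG peaks at 300 bp with 82.1% and CHH at 350 bp with 74.1%. Both curves are shares of all regions of the panel, of which 125 on the left and 484 on the right have a CHH loss. CHH curves are therefore held lower than CHG curves. On the left 166 regions span the end, so the CHG peak there follows from the choice of regions. The label on the right keeps CHG out of the gene. At -100 bp on the left CHG covers 54.2% and CHH 38.1% of all 168 regions, and no curve was made over those with a CHH loss alone.

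Regions with and without a CHH loss differed in level. The 647 with one had CHG medians of 29.0% in nrpd1 and 61.4% in WT, and the 195 without had 16.6% in nrpd1 and 43.8% in WT. The WT median was higher in the regions with a CHH loss on 12 of 12 chromosomes, by 15.3 points on average (SD 8.12 over chromosomes). The regions without a CHH loss were also narrower, with a median of 248 bp against 374 bp in those with one, and the part of width in the result was not tested. Across the 647 pairs, the CHG difference and the CHH difference were weakly related (Pearson r = 0.306, Spearman rho = 0.270) and the WT levels somewhat more (r = 0.430, rho = 0.431). These are descriptions over regions that share libraries and reads, and some share a CHH loss. By size of the CHG drop, the 216 regions with the largest drops had CHH medians of 6.56% in nrpd1 and 25.9% in WT, and the 216 with the smallest had 5.92% in nrpd1 and 21.4% in WT.

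CG methylation was seldom listed as lower at these ends. A CG loss overlapped 60 of the 842 regions (7.13%, Wilson 95% interval 5.58 to 9.07), against 9.08% of all CHG losses. The share fell to 2.14% when at least 50% of the CHG region had to be covered, and no share over all CHG losses is given at that coverage. The overlapping CG losses were narrow, with a median of 260 bp against 343.5 bp for the 842 regions, and the part of width in this fall was not tested. The 60 CG losses had medians of 52.3% in nrpd1 and 79.1% in WT and kept 64.4% of the WT level. Regions with both a CHH and a CG loss were few, 42, and wide, with a median of 703 bp, and had CHG medians of 29.6% in nrpd1 and 66.8% in WT. The largest CHG drop among them was on chromosome 3 (46553838 to 46554582), 23 bp past a gene. There CHG was 20.2% in nrpd1 and 69.3% in WT, CHH was 10.03% in nrpd1 and 34.0% in WT, and CG was 67.7% in nrpd1 and 85.1% in WT. The next was on chromosome 9 (67990332 to 67990712), where CHG was 29.1% in nrpd1 and 77.1% in WT, CHH 6.49% in nrpd1 and 24.9% in WT, and CG 37.01% in nrpd1 and 57.9% in WT. The other 3 regions named by this criterion lay on chromosome 1 (74193667 to 74195389), with CHG at 39.3% in nrpd1 and 85.6% in WT, chromosome 3 (2647875 to 2649168), with 23.7% in nrpd1 and 69.98% in WT, and chromosome 11 (5285532 to 5286478), with 41.2% in nrpd1 and 85.4% in WT.

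**Figure D4:**
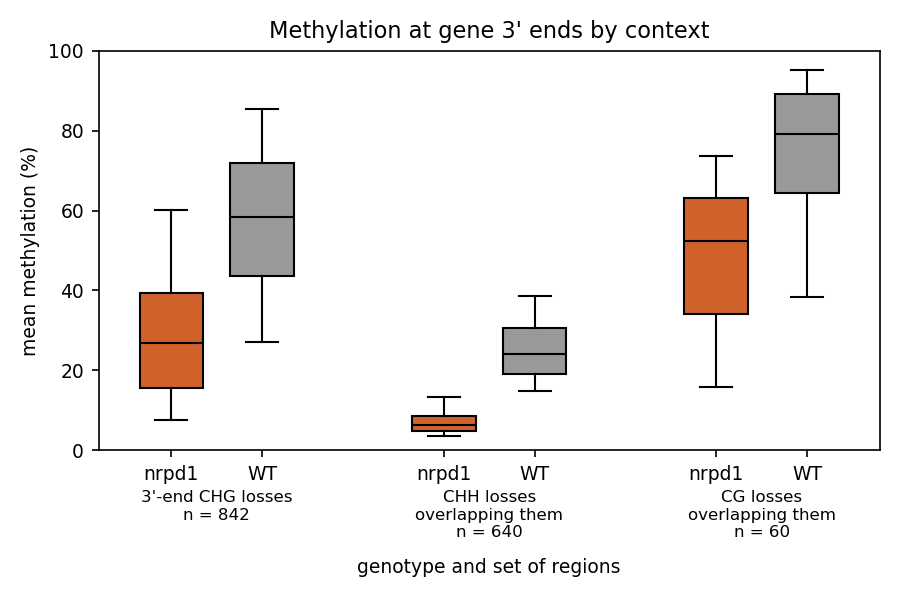
Mean methylation (%) in nrpd1 (orange, left of each pair) and WT (grey) of the 842 CHG losses, of the 640 CHH losses overlapping them and of the 60 CG losses overlapping them. Boxes are quartiles, lines medians and whiskers the 5th to 95th percentiles over regions. CHH in nrpd1 is compressed near a median of 6.35%, while CHG and CG have medians of 26.8% and 52.3%. The WT medians differ as well, at 24.0% for CHH, 58.3% for CHG and 79.1% for CG.

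In 5 regions a CG gain overlapped the CHG loss (0.594%, against 0.121% of all CHG losses, counts too small to compare). In the 3 with the largest CHG drop the contexts moved in opposite directions at the same gene end. On chromosome 4 (52391958 to 52392626) CHG was 18.3% in nrpd1 and 53.7% in WT, while CG between 52391989 and 52392091 was 81.5% in nrpd1 and 51.9% in WT. On chromosome 1 (4168509 to 4169146) CHG was 39.3% in nrpd1 and 73.6% in WT, and CG from 4168290 to 4168607 was 39.4% in nrpd1 and 15.3% in WT. On chromosome 9 (58184337 to 58185170) CHG was 14.9% in nrpd1 and 35.9% in WT, and CG from 58184490 to 58184610 was 77.4% in nrpd1 and 60.02% in WT. All 3 also overlapped a CHH loss.

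The listed regions at gene 3′ ends were counted by direction in each context. Of 896 CHG regions listed there, 842 were losses (94.0%, Wilson 95% interval 92.2 to 95.4), against 88.0% of all listed CHG regions. Direction chose the regions, so nothing is read from this share. In 3′ UTRs 219 of 247 regions were losses (88.7%, 84.1 to 92.0) and in the Downstream flank 623 of 649 (96.0%, 94.2 to 97.3). In CHH, 701 of 711 regions in 3′ UTRs were losses (98.6%, 97.4 to 99.2) and 1336 of 1340 in the Downstream flank (99.7%, 99.2 to 99.9), against 95.8% of all CHH regions. In CG, 75 of 151 regions in 3′ UTRs were losses (49.7%, 41.8 to 57.6) and 120 of 168 in the Downstream flank (71.4%, 64.2 to 77.7), against 67.7% of all CG regions. The 54 CHG gains had medians of 60.9% in nrpd1 and 30.2% in WT.

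In WT level, CHG losses at gene 3′ ends lay between those within genes and those in promoters and distal sequence. In the share kept, they lay between losses in exons and those in introns. They kept a median of 46.5% of the WT level, against 43.8% in exons, 47.3% in introns, 50.5% in promoters and 55.3% in distal intergenic sequence. Their WT median was 58.3%, against 49.4% in exons, 55.8% in introns, 68.2% in promoters and 70.7% in distal sequence. The share kept at 3′ ends was below that of promoters on 10 of 12 chromosomes, by a mean of -3.74 points (SD 3.89), and below that of distal regions on 12 of 12, by a mean of -8.63 points (SD 2.89). At similar WT level the medians lay closer together, and the order of the labelled 3′ ends and promoters was reversed. Among regions with 60 to 80% in WT, those at 3′ ends kept a median of 55.0% (306 regions), those in promoters 53.3%, in distal sequence 56.9% and in exons and introns 57.5%. Among regions with 40 to 60% in WT, the medians were 42.1% at 3′ ends (288 regions), 40.3% in promoters, 43.05% in distal sequence and 44.1% in exons and introns. In these 2 classes the 3′ ends lay above promoters and below the others. Among regions with 20 to 40% in WT they kept 32.4% (151 regions), against 31.4% in promoters, 32.1% in distal sequence and 34.7% in exons and introns, so there they lay above distal sequence. Among regions with 80 to 100% in WT they kept 68.7% (95 regions), against 67.9% in promoters, 70.7% in distal sequence and 71.4% in exons and introns. The minus-strand ends under other labels kept 32.7%, 41.3%, 53.8% and 63.4%, from the lowest to the highest of these classes. They lay above promoters except at 80 to 100% in WT (83 regions), where they lay below, so the reversed order did not hold there. The quartile ranges overlapped in each class. No test was made of these differences.

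**Figure D5:**
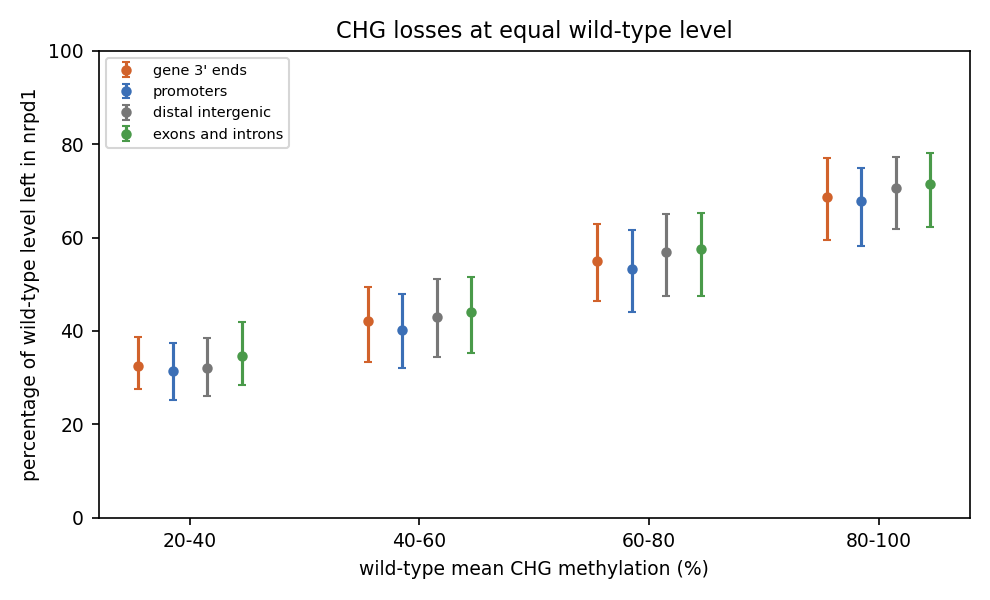
Percentage of the WT CHG level left in nrpd1 (points, medians over regions; bars, quartiles) by class of WT level (%), for CHG losses at gene 3′ ends, in promoters, in distal intergenic sequence and in exons and introns. Within each class the 4 medians lie close together and the quartile bars overlap, while the share left rises with the WT level, at 3′ ends to 68.7% in the highest class, against 32.4% in the lowest.

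The regions were assigned to 827 genes, which is 3.01% of the 27473 genes named in the tables. Of these genes 812 had 1 region and 15 had 2. Of the 3 of these 15 with the most CHG cytosines, those on chromosomes 10 and 9 had 1 region that lay nearest the end of another gene, or both. On chromosome 12, the regions 4603738 to 4603822 and 4603906 to 4604377 lay past the end of a single gene of 237 bp and shared a CHH loss. The first had 33.1% in nrpd1 and 54.6% in WT, and the second 24.6% in nrpd1 and 50.4% in WT. Most regions stood alone, with a median gap of 1872 bp to the next CHG loss, and 103 (12.2%) had another within 500 bp.

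For 355 of the 842 regions (42.2%, Wilson 95% interval 38.9 to 45.5) the assigned gene also had a CHG loss in its promoter, against 36.5% of all genes named. With the gene of the nearest 3′ end in place of the assigned gene the count was 361. A CHH loss in the promoter was listed for the assigned gene of 590 regions (70.1%), against 68.3% of all genes named, and a CG loss for 107 (12.7%), against 9.46%. With at least 10 cytosines the CHG share was 27.7%, against 22.5% of all genes named, and in the upper 50% by the authors' statistic 24.6%, against 20.1%. A gene was named only where it had a listed region, so the shares over all genes do not hold for genes without one.

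The distance past the 3′ end to the next gene was also compared. The median distance to the next named gene was 4892 bp for 770 genes with a loss at their end and 5075 bp for all named genes, and the next gene lay within 2 kb in 17.4% and 27.7%. The promoter label takes regions upstream of a neighbour out of the set, so a deficit of close neighbours is built in. The next gene was on the same strand for 54.7% of these genes and 54.5% of all, and among genes whose next gene lay beyond 2 kb for 64.8% of these and 60.3% of all. Distances are to genes named in the tables and would be shorter with a full annotation.

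Along the genome, the regions lay mainly in the outer parts of chromosomes. The parts within 20% of the chromosome length from an end held 697 of the 842 regions (82.8%). Of all CHG losses on placed sequence 73.0% lay there, of those in promoters 81.7% and of distal ones 65.9%. On chromosome 2, 20 of 56 regions lay there. The 697 outer regions had medians of 26.2% in nrpd1 and 57.8% in WT, and the 145 in the middle had 30.1% in nrpd1 and 61.4% in WT. Chromosome 1 had the most regions, 107, and chromosome 2 the fewest, 56. As a share of all CHG losses of the chromosome, they ranged from 1.74% on chromosome 2 to 2.64% on chromosome 7. The median share kept ranged from 39.2% on chromosome 3, with medians of 19.4% in nrpd1 and 51.7% in WT, to 53.3% on chromosome 5, with 33.2% in nrpd1 and 63.9% in WT. The median difference varied little, from -29.6 points on chromosome 2 to -26.01 points on chromosome 9. None of the 842 regions lay on unplaced sequence.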

How the data were processed

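Bisulfite libraries of embryo DNA (3 nrpd1, 3 WT) were used as the authors' 3 tables of differing regions, 1 each for CG, CHG and CHH. Per the submitters' processing notes, the tools included Bismark 0.24.0 and Trim Galore 0.6.7. The region caller with its thresholds, the annotation tool and the conversion rate are not stated in the labels or headers. The authors deposited methylation as a fraction per region and genotype, printed here as percent. The deposited statistic is a score per region, used only for 1 alternative, and the deposited score of difference was replaced by nrpd1 minus WT of the 2 means. Depth is unknown. Coordinates are those of the tables (SL4.0).

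Medians, quartiles, Wilson intervals and overlaps of at least 1 bp were computed with Python 3.11.15, pandas 2.3.3 and scipy 1.17.1. Gene ends came from the gene coordinates and strands in the tables, and the interval routines were tested on simulated data. No test between samples could be made, since the tables hold 1 mean per genotype. The SD over 12 chromosomes describes spread along 1 genome. Regions, lists and comparisons were chosen with earlier results of these data known. Named regions were the 8 largest drops, the 4 largest in 3′ UTRs, the 5 largest with both a CHH and a CG loss, the 3 widest, 3 of the 15 genes tied at 2 regions (those with the most CHG cytosines), the smallest and largest difference, and the 3 largest drops overlapping a gain. The regions quoted on either side of the 300 bp limit were chosen after their values were seen. Gene lists by function could not be applied, because 0 of 27473 identifiers matched the RefSeq gene table. No sequence is printed, since no genome of this build was used here.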

Additional observations from a re-analysis of the deposited data

How the results depend on the processing

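Of 47 values recomputed under alternatives that could change them, 34 stayed within the interval or chromosome SD of the reported value, 13 moved outside it and 0 reversed. With differences of at least 20 points, the median CHG difference was -28.6 points, a shift whose direction is set by leaving out the smaller drops. The share overlapping a CHH loss was then 29.6%, against 35.2% of all CHG losses. With that minimum for CHH losses alone, chosen after seeing the data, the share was 26.5%, against 33.2% of all CHG losses. With the upper 50% of regions by the authors' statistic, the median CHG difference was -28.6 points. The share overlapping a CHH loss was 57.0%, against 61.4% of all CHG losses. The share of regions whose assigned gene had a promoter CHG loss was then 24.6%, against 20.1% of all genes named. With at least 10 cytosines that share was 27.7%, against 22.5% of all genes named. For 3′ UTRs alone, losses made up 88.7% of CHG regions, 69.4% overlapped a CHH loss and 10.05% a CG loss, and for the Downstream label alone losses made up 96.0%. With at least 50% of the region covered, 72.9% overlapped a CHH loss and 2.14% a CG loss. No share over all CHG losses is given at that coverage. The cause was not tested. Leaving out chromosome 0 could not change the 7 values, since no region lies there. Adding the minus-strand ends, also chosen after seeing the data, kept all 7 values within their spread. No paired analysis was possible because the tables give 1 mean per genotype, and for the same reason no replicate could be left out. Precision is limited by the unknown depth, above all in regions with few cytosines.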
